A study of Mus musculus with 12 samples.

Results

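Enzymes that build and remodel the glycosylphosphatidylinositol (GPI) anchor were followed in bulk RNAseq of mouse cortex through a list of 30 gene symbols, each looked up in the authors' table of gene identifiers, with values summed over the transcripts of a gene. Of the 30 genes, 29 were found among the 36047 genes of the table. *Pigy* was not found under its symbol. RefSeq gives *Pigy* as a synonym of *Pigyl*, and *Pigyl* was added after its values were seen and is described apart from the 29. The study compared cortices of WT and *Gde2*KO mice at 2 ages, with 3 libraries in each of the 4 groups (4-month WT, 4-month *Gde2*KO, 19-month WT and 19-month *Gde2*KO). *Gde2*KO animals lack function of *Gde2*, which the tables list as *Gdpd5*, and the methods name the line as *Gde2*-/-. The labels give no strain, sex or other allele, and they do not say that animals were pooled. The 4-month comparison was made to look for pathways that change early, and the 19-month comparison to look at splicing in aged animals.

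A GPI anchor is a glycolipid that holds a protein on the outer face of the plasma membrane. It is assembled on phosphatidylinositol in the endoplasmic reticulum by transfer of N-acetylglucosamine (GlcNAc), removal of the acetyl group, acylation of the inositol, and stepwise addition of mannose from dolichol phosphate mannose and of ethanolamine phosphate, and a transamidase then swaps it for the C-terminal peptide of the protein. Remodeling enzymes trim the attached anchor and exchange its fatty acid on the way to the surface, where GDE2, a membrane-spanning glycerophosphodiester phosphodiesterase, cuts the anchor and releases some of these proteins, such as glypicans in the nervous system.

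The values used for tests are normalized counts, which are Kallisto estimated counts divided by a size factor of the library. TPM, which also correct for transcript length, are used where levels of different genes are compared, for shares of transcripts within a gene, and as an alternative scale where the text says so. Sequencing depth, estimated from the value of 1 read, was 46434270 to 59728494 reads at 4 months. At 19 months it was 36915259 to 44604721 reads in 4 libraries, 6734475 in WT library A and 3707928 in *Gde2*KO library A, and the smallest member value rested on 20 reads. Neuronal, astrocytic, microglial, oligodendrocyte and endothelial markers were above 0 in every library. WT libraries 1 and 2 at 4 months stood apart, with summed levels of 6 hippocampal markers of 12297 and 11232 normalized counts against 769 to 1975 in the other 10 libraries, and of 6 striatal markers of 3394 and 2660 against 22987 to 57418 in the other 4 libraries of that age. Summed levels of 4 Y-linked genes were 251 to 371 normalized counts in all 6 libraries at 4 months and in *Gde2*KO library A at 19 months, and 4224 to 4797 in the other 5 libraries at 19 months. Age thus cannot be told apart from sex in WT, nor from the library set in either genotype. In *Gde2*KO age went with sex except in library A. At 19 months library A was also the only one with low Y-linked levels, so sex was not balanced between the genotypes at that age.

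*Gdpd5*, the targeted gene, was read first as a check of the labels. At 4 months it measured 684, 702 and 1199 normalized counts in WT cortices and 417, 585 and 403 in *Gde2*KO cortices. At 19 months it measured 1065, 1129 and 952 in WT and 441, 456 and 560.1 in *Gde2*KO. The *Gde2*KO values were below the WT values at both ages without overlap, and reads of the gene remained in every *Gde2*KO library. The log2 fold change was -0.85 ± 0.25 (SE, n = 3 and 3) at 4 months, with an adjusted p of 0.463 in limma, and -1.11 ± 0.12 at 19 months, with an adjusted p of 0.0111.

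Every one of the 29 genes was expressed in cortex in all 12 libraries. Their median level over libraries was 14.9 TPM, against 11.5 TPM over the 18731 genes tested across the 4 groups, and 19 of the 29 lay above that gene median. The pathway was uneven within single complexes. The GPI-GlcNAc transferase, which carries out the opening step, ran from 4.69 TPM for *Piga*, its catalytic subunit, and 7.64 TPM for *Pigh* to 56.1 TPM for *Pigp* and 63.4 TPM for *Pigq*, both accessory subunits. The ratio of *Pigq* to *Piga* was 10.1 to 16.9 in TPM over the 12 libraries.

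The next enzymes were low. *Pigl*, the deacetylase, had a median of 7.13 TPM and *Pigw*, the inositol acyltransferase, 4.04 TPM. Among the mannosyltransferases, *Pigm*, which adds the first mannose, was the lowest of all 29 genes. Its levels were 3.26, 3.66 and 3.80 TPM in 4-month WT, 3.67, 3.66 and 3.26 in 4-month *Gde2*KO, 3.37, 3.40 and 3.80 in 19-month WT, and 4.71, 3.31 and 3.80 in 19-month *Gde2*KO. These ranges overlapped between all 4 groups. *Pigx*, the partner that stabilizes the *Pigm* product, stood at 27.9 TPM, and the ratio of *Pigx* to *Pigm* was 5.72 to 15.5 over the libraries. *Pigv* and *Pigb*, which add the second and the third mannose, had medians of 7.24 and 18.7 TPM, and *Pigz*, which adds a side mannose to some anchors, 20.1 TPM.

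The ethanolamine phosphate transferases lay between 8.08 TPM for *Pigg* and 14.9 TPM for *Pigf*, the small subunit shared by the *Pigo* and *Pigg* products. The 5 subunits of the GPI transamidase, which attaches the finished anchor to protein, ran from 24.6 TPM for *Pigu* to 54.7 TPM for *Pigt*. *Pigk*, the catalytic subunit, stood at 32.6 TPM. Each transamidase gene varied over the 12 libraries by at most 1.45-fold in TPM, the highest value over the lowest. The remodeling genes were lower, from 6.02 TPM for *Pgap1*, the inositol deacylase, through 8.90 for *Pgap3* and 13.3 for *Mppe1*, to 20.6 for *Pgap2*.

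The dolichol phosphate mannose synthase subunits, which also supply mannose to N-glycosylation, were 3 of the 4 highest genes. *Dpm2*, a small regulatory subunit, was the highest. Its levels were 77.7, 73.9 and 69.1 TPM in 4-month WT, 80.9, 74.9 and 116 in 4-month *Gde2*KO, 85.1, 76.2 and 77.6 in 19-month WT, and 75.7, 74.5 and 76.5 in 19-month *Gde2*KO, with *Gde2*KO library 3 at 4 months above the rest. *Dpm1*, the catalytic subunit, had a median of 72.4 TPM. *Dpm3*, which tethers *Dpm1* to the membrane, had a median of 59.9 TPM and the widest range of the 29, at 4.26-fold between libraries. Its highest value was also in *Gde2*KO library 3 at 4 months, the library with the highest TPM total, and the ranges here include that difference in scale. *Gpld1*, a secreted phospholipase that cleaves GPI anchors, had a median of 14.9 TPM.

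**Figure D1:**
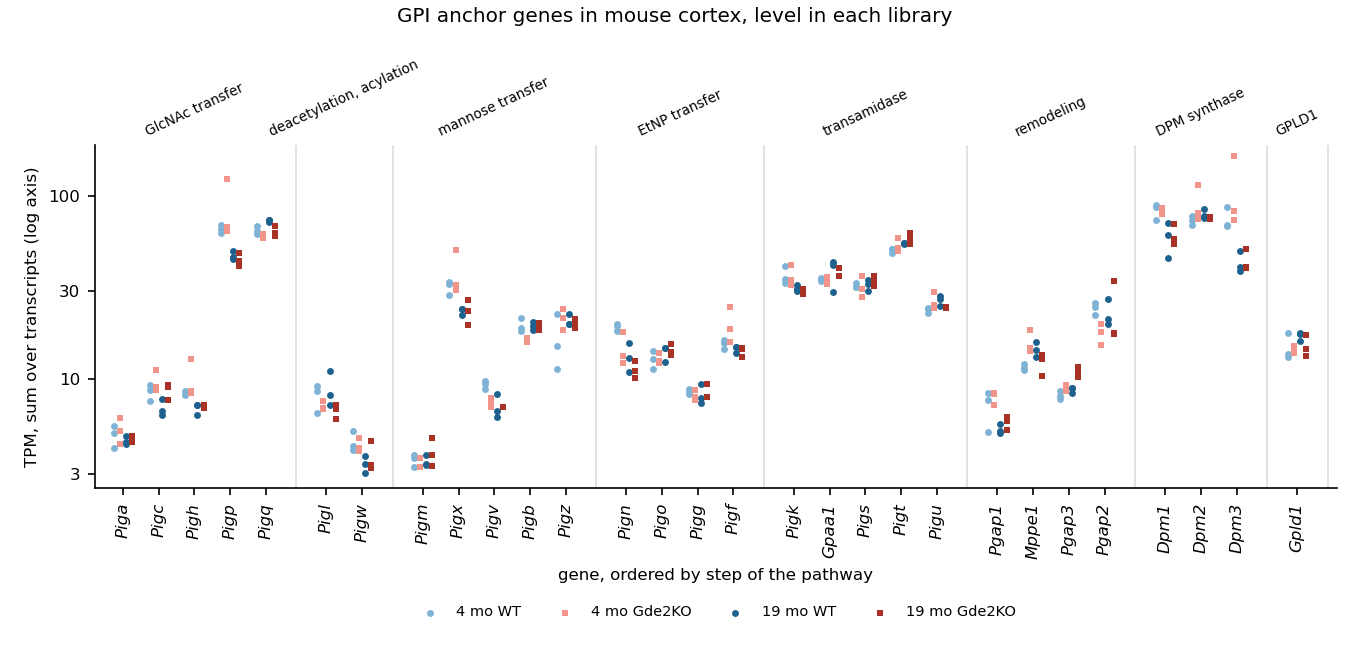
Level of each of the 29 genes in TPM on a log axis, 1 point a library, ordered by step of the pathway and colored by age and genotype. Medians ran from 3.66 TPM for *Pigm* to 76.3 TPM for *Dpm2*, and *Gde2*KO library 3 at 4 months was the highest point for *Pigp*, *Pigx*, *Dpm2* and *Dpm3*.

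To ask whether loss of *Gde2* goes with altered expression of the machinery that makes its substrates, *Gde2*KO and WT cortices were compared at 4 months with limma. Calls needed a Benjamini-Hochberg adjusted p, taken over all genes tested, of less than 0.1 together with a log2 fold change beyond 0.72, the study's limits for adjusted p and effect size, applied here in both directions. None of the 29 genes was called (0 of 29), where 0.126% of all genes tested (24 of 19035) were. At an unadjusted p under 0.05 there was 1 of 29, against 10.6% of all genes. The log2 fold changes of the 29 lay between -0.22 and 0.66, and their 95% intervals between -0.61 and 1.36, so shifts of that order in single genes were not detectable with 3 libraries a group. Values were higher in *Gde2*KO for 23 of 29 genes and for 63.2% of all genes, with a median of 0.11 in both. Scaling by trimmed mean of M values (TMM), which centres each library on the bulk of its genes, gave 15 of 29 and 50.9%.

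The members with the smallest p at 4 months were *Mppe1*, *Pigz* and *Pgap3*, none of which was called. *Mppe1*, which removes ethanolamine phosphate from the second mannose and so prepares the anchor for export, measured 487, 476 and 510.0 normalized counts in WT and 629.8, 629 and 839.8 in *Gde2*KO. All *Gde2*KO values were above all WT values. The log2 fold change was 0.50 ± 0.16 (SE), with an unadjusted p of 0.0135 and an adjusted p of 0.463 in limma.

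*Pigz* measured 171, 186 and 384 normalized counts in WT and 362, 326 and 409 in *Gde2*KO, and the groups overlapped. Its low values were those of WT libraries 1 and 2, the pair with high hippocampal and low striatal marker levels, and the other 10 libraries of the series ran from 326 to 409. The log2 fold change was 0.66 ± 0.30 with an adjusted p of 0.464, and it was -0.077 without WT libraries 1 and 2, which leaves 1 WT library. In bulk tissue, fewer cells of a type and less RNA per cell cannot be told apart, and the part of tissue composition in the *Pigz* values was not tested further.

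*Pgap3*, the phospholipase that removes an unsaturated fatty acid from the anchor in the Golgi, measured 246, 269 and 301 normalized counts in WT and 332, 311 and 358 in *Gde2*KO, without overlap. Its log2 fold change was 0.30 ± 0.15 with an adjusted p of 0.479. Without WT libraries 1 and 2, which leaves 1 WT library, the log2 fold change was 0.15. The part of tissue composition in the *Pgap3* values was not tested. *Dpm1* was the other gene whose groups did not overlap, at 883, 964 and 869.9 in WT and 1003, 1032 and 1139.9 in *Gde2*KO. Its log2 fold change was 0.22 ± 0.12 with an adjusted p of 0.490, and summed TPM gave a value of 0.01. Groups that did not overlap were thus 3 of 29, against 15.4% of all genes tested, and all 3 were higher in *Gde2*KO, against 11.1%.

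At 19 months 0 of 29 genes were called between *Gde2*KO and WT, where 0.0969% of all genes tested (18 of 18583) were. At an unadjusted p under 0.05 there were 2 of 29, against 6.91% of all genes. The fold changes were small, between -0.28 and 0.26 on the log2 scale, and the 95% intervals lay between -0.55 and 0.52, all inside the 0.72 needed for a call. Values were lower in *Gde2*KO for 20 of 29 genes and for 55.4% of all genes, and the median was -0.06 over the 29 and -0.02 over all genes.

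Both genes under an unadjusted p of 0.05 at 19 months act in fatty acid remodeling. *Pgap2*, needed to add back a saturated fatty acid after *Pgap3* has acted, measured 429, 362 and 357 normalized counts in WT and 323, 295 and 321 in *Gde2*KO, without overlap. The log2 fold change was -0.28 ± 0.12 with an adjusted p of 0.711, and in TPM it was -0.03, with *Gde2*KO library A, the shallowest, at 34.4 TPM against 17.8 and 17.6 in the other 2. *Pgap2* lies on chromosome 7 at 102210208 to 102238567 on GRCm38, 2.75 Mb from *Gdpd5*, and was the only one of the 29 genes on that chromosome.

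*Pgap3* measured 345, 338 and 296 normalized counts in WT and 415, 399.6 and 359 in *Gde2*KO at 19 months, again without overlap. Its log2 fold change was 0.26 ± 0.11 with an adjusted p of 0.711. *Mppe1*, with the next smallest p, measured 679, 557 and 606 in WT and 438, 587 and 554 in *Gde2*KO, with a log2 fold change of -0.23 ± 0.13 and an adjusted p of 0.734. The *Mppe1* groups overlapped at this age, and without *Gde2*KO library A the log2 fold change was -0.10. *Piga* was the last gene with groups that did not overlap, at 278 to 284 in WT and 285 to 313 in *Gde2*KO, which made 3 of 29 against 14.2% of all genes tested, with 2 higher in *Gde2*KO against 5.85% and 1 lower against 8.32%.

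Set beside each other, the remodeling pair gave a ratio of *Pgap3* to *Pgap2* that was higher in *Gde2*KO at both ages. This ratio was chosen after its values were seen, so it is described with no test. In normalized counts it was 0.53, 0.61 and 0.76 in 4-month WT and 1.02, 0.88 and 0.80 in 4-month *Gde2*KO. At 19 months the ratio was 0.80, 0.93 and 0.83 in WT and 1.28, 1.35 and 1.12 in *Gde2*KO. In TPM the 4-month groups again did not overlap, at 0.33 to 0.35 and 0.46 to 0.56, and at 19 months *Gde2*KO library A, at 0.30, fell below the WT range of 0.33 to 0.42.

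**Figure D2:**
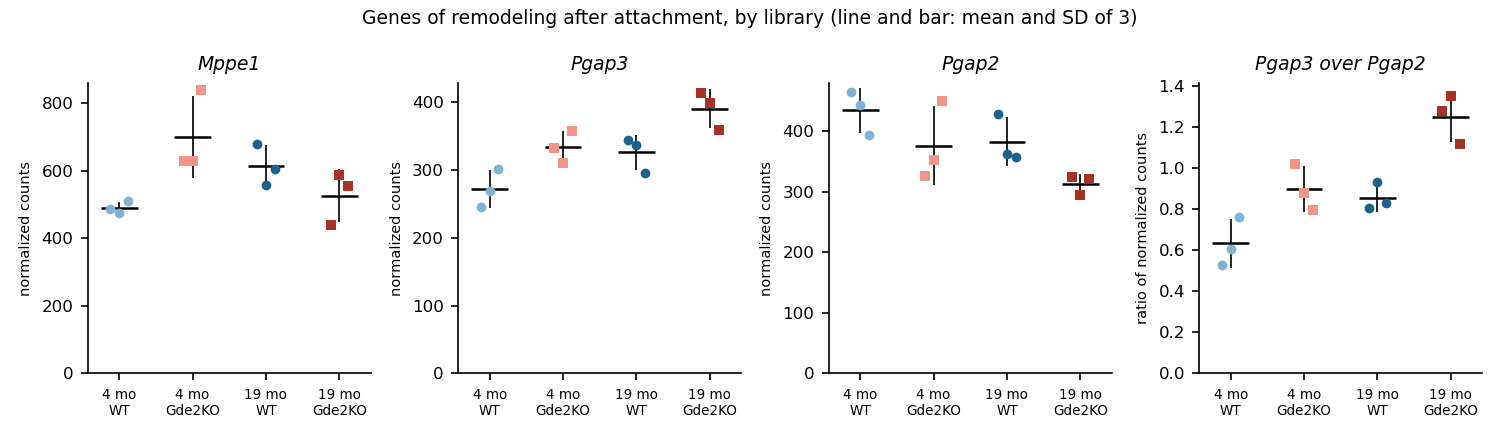
Normalized counts of *Mppe1*, *Pgap3* and *Pgap2* and the ratio of *Pgap3* to *Pgap2*, 1 point a library, with the mean and SD of each group of 3 as a line and bar. *Mppe1* in *Gde2*KO was above WT at 4 months but not at 19 months, while the ratio was higher in *Gde2*KO at both ages.

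**Figure D3:**
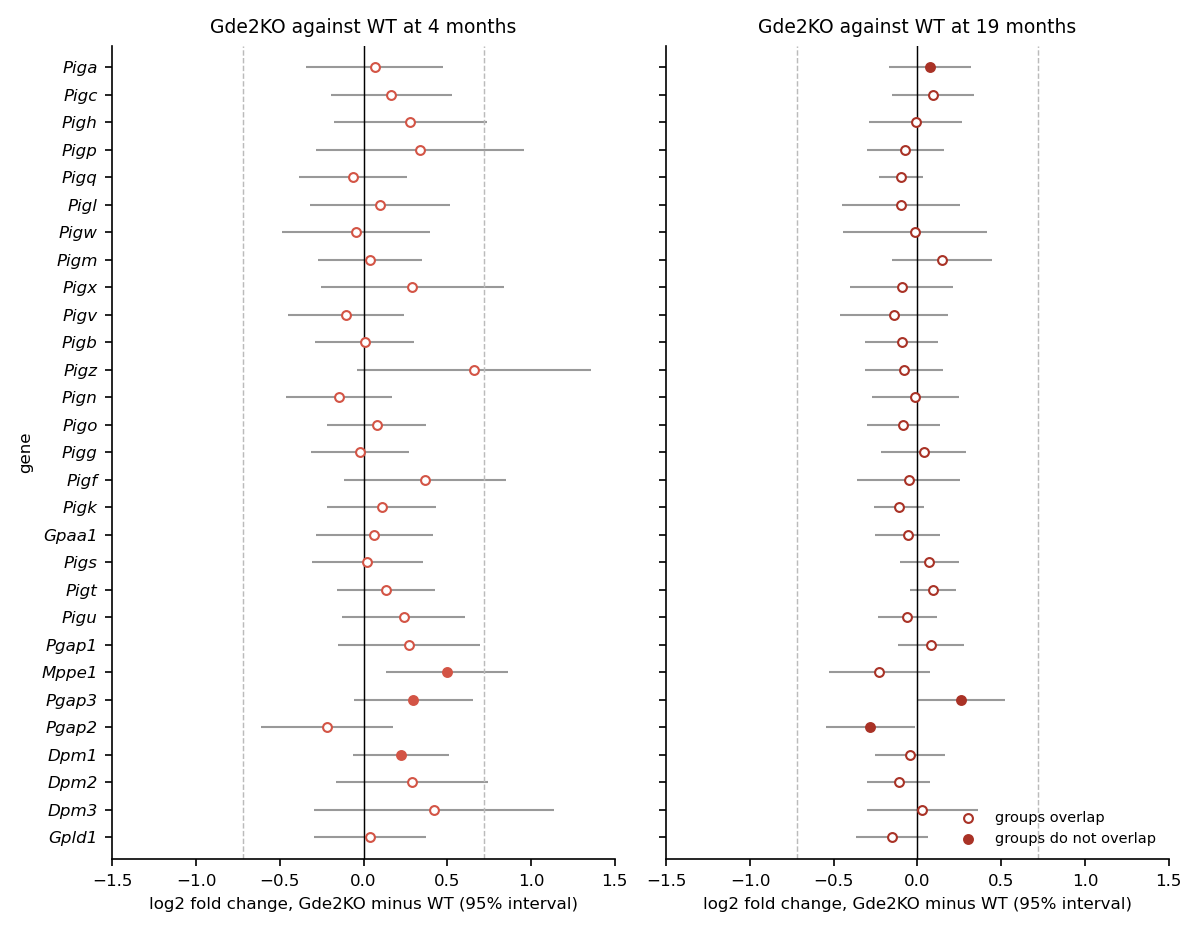
Log2 fold change of each of the 29 genes, *Gde2*KO minus WT, with its 95% interval at 4 months (left) and 19 months (right), where filled points mark groups that did not overlap and dashed lines the threshold of 0.72. No gene was called at either age.

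The genotype effects at the 2 ages were set against each other in a fit of all 12 libraries. The interaction passed an adjusted p of 0.1 for 0 of 29 genes, against 0.048% of all genes tested (9 of 18731), and an unadjusted p of 0.05 for 1 of 29, against 12.9%. That gene was *Mppe1*, whose genotype effect was lower at 19 months than at 4 months by a log2 difference of -0.73 ± 0.21, with an unadjusted p of 0.00455 and an adjusted p of 0.368. *Pigz* had a difference of -0.74 ± 0.34 with an adjusted p of 0.389. The difference was -0.0045 without the hippocampal-marker-high WT libraries 1 and 2, which leaves 1 WT library at 4 months.

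Age was then compared within each genotype. In WT cortices 2 of 29 genes were called, against 13.7% of all genes tested (2565 of 18731), and the groups of 13 of 29 did not overlap, against 46% of all genes. Of these, 6 were higher at 19 months, against 19.3% of all genes, and 7 lower, against 26.7%. In *Gde2*KO cortices 3 of 29 were called, all lower at 19 months, against 11.9% of all genes (2224 of 18731) in either direction and 9.32% lower. The groups of 12 of 29 did not overlap, against 41.2%, with 1 higher, *Pgap3*, against 11.3% and 11 lower against 29.9%. With the deposited scaling the median of all genes shifted by -0.07 in WT and by -0.21 in *Gde2*KO, and the medians of the 29 were 0.00 and -0.21. With TMM scaling the shift in *Gde2*KO was -0.04.

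Markers of tissue and cell types moved with age as well. In *Gde2*KO all 6 striatal markers were lower at 19 months without overlap, against 29.9% of all genes tested, though 0 of 6 were called. Their median log2 change was -1.80, with summed levels of 22987 to 57418 normalized counts at 4 months and 7233 to 15672 at 19 months. In WT 5 of 6 hippocampal markers were called lower, against 7.4% of all genes, with sums of 1137 to 12297 and then 769 to 922. Of the blood markers 4 of 5 were called higher in WT, against 6.29% of all genes, with sums of 3400 to 6805 and then 6105 to 32714. In both genotypes 2 of 6 oligodendrocyte and 1 of 6 astrocyte markers were called lower, against 7.4% of all genes in WT and 9.32% in *Gde2*KO. In WT 3 of 6 astrocyte markers were lower without overlap and 1, *Aldh1l1*, was higher. In *Gde2*KO 1 of 6 microglial and 1 of 5 endothelial markers were called lower. Oligodendrocyte sums did not overlap between the ages, at 109018 to 139291 and then 79198 to 105250 in WT and at 136377 to 151477 and then 93135 to 120824 in *Gde2*KO. Of 8 neuronal markers 0 were called in either genotype. Without WT libraries 1 and 2 at 4 months, which held the high hippocampal sums, the change with age in WT was -0.69 for *Dpm3* and 0.02 for *Pigz*. Both values rest on 1 WT library at 4 months. The part of the other marker differences in the changes of the GPI genes with age was not tested.

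*Dpm3* was the gene called in both genotypes. It measured 351, 244 and 275 normalized counts in WT and 324, 276 and 629 in *Gde2*KO at 4 months, and 163, 192 and 159 in WT and 182, 171 and 169 in *Gde2*KO at 19 months. All 6 libraries at 19 months were below all 6 at 4 months. It fell by a log2 fold change of -0.75 ± 0.26 in WT (adjusted p = 0.0629 in limma) and of -1.14 ± 0.26 in *Gde2*KO (adjusted p = 0.0141). The WT call did not hold under TMM scaling, at -0.69, nor without WT library 1 at 4 months, at -0.60 with an adjusted p of 0.211.

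*Pigp* measured 664, 594 and 669 normalized counts in WT and 693, 598 and 1279 in *Gde2*KO at 4 months, and 461, 423 and 445 in WT and 448, 428 and 389.9 in *Gde2*KO at 19 months. Here too the 2 ages did not overlap. In *Gde2*KO it fell by a log2 fold change of -0.94 ± 0.22 (adjusted p = 0.0151), and in WT the value was -0.53 ± 0.22 with an adjusted p of 0.104.

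*Pigx* measured 384, 338 and 406 normalized counts in WT and 415, 354 and 658 in *Gde2*KO at 4 months, and 298, 292 and 265 in WT and 299, 231 and 274 in *Gde2*KO at 19 months, again with no overlap of the ages. In *Gde2*KO it fell by a log2 fold change of -0.78 ± 0.20 (adjusted p = 0.0215), and in WT the value was -0.40 ± 0.20 with an adjusted p of 0.184. Without *Gde2*KO library 3 at 4 months, the highest for all of these genes, *Pigp* at -0.61 and *Pigx* at -0.52 were no longer past the threshold of 0.72, and *Dpm3* at -0.78 remained. The *Pigx* call was also lost under TMM scaling (-0.61), median-of-ratios scaling (-0.62), gene-level TPM (-0.67) and array weights (-0.68), and without *Gde2*KO library B at 19 months (-0.68), while *Dpm3* and *Pigp* were called under each of these.

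*Pign*, which adds ethanolamine phosphate to the first mannose, had the smallest p in WT. It measured 1054, 1041 and 1063 normalized counts in WT and 869, 1100.1 and 898 in *Gde2*KO at 4 months, and 725, 651 and 727 in WT and 803, 613 and 678 in *Gde2*KO at 19 months. The ages did not overlap in either genotype. The log2 fold change was -0.59 ± 0.12 in WT (adjusted p = 0.00906) and -0.45 ± 0.12 in *Gde2*KO (adjusted p = 0.0260), both of which passed the adjusted p threshold but not the fold change threshold. Its value in WT stayed between -0.62 and -0.53 over all 19 alternative settings, some of which leave a fold change as it was.

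*Pigz* was the one gene called higher with age in WT, by a log2 fold change of 0.75 ± 0.24 (adjusted p = 0.050). At 19 months it measured 396.01, 377 and 394 normalized counts in WT and 381, 382 and 340.1 in *Gde2*KO. The WT ages overlapped through WT library 3 at 4 months, at 384. Without WT libraries 1 and 2 at 4 months, which leaves library 3 alone at that age, the log2 fold change was 0.02. In *Gde2*KO it was 0.01.

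By adjusted p alone, 4 of 29 genes passed in WT, against 28.2% of all genes, namely *Pign* and *Dpm3* lower and *Pigz* and *Pigo* higher. *Pigo*, which adds ethanolamine phosphate to the third mannose, had a log2 fold change of 0.28 ± 0.11 (adjusted p = 0.0834). In *Gde2*KO 9 of 29 passed, all lower, against 32.3% of all genes in either direction and 24.9% lower. Beside *Dpm3*, *Pigp*, *Pigx* and *Pign* these were *Pgap1* (-0.52 ± 0.15), *Pigf* (-0.52 ± 0.18), *Pigh* (-0.50 ± 0.17), *Mppe1* (-0.41 ± 0.15) and *Pigk* (-0.26 ± 0.11). *Pgap1* measured 947 to 1448 normalized counts in 4-month WT, 1391 to 1641 in 4-month *Gde2*KO, 935 to 1036 in 19-month WT and 966 to 1142 in 19-month *Gde2*KO. For *Mppe1* the log2 fold change with age was 0.32 ± 0.15 in WT, the opposite sign, with an adjusted p of 0.150.

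Over both genotypes, 6 of the 29 genes were lower at 19 months with no overlap of the ages in WT and none in *Gde2*KO, namely *Dpm3*, *Pigc*, *Pigh*, *Pign*, *Pigp* and *Pigx*, against 16.6% of all genes tested (3105 of 18731), and 0 were higher in both, against 6.73%. *Pigc*, *Pigh* and *Pigp* are subunits of the GPI-GlcNAc transferase. Its other 2 measured subunits, *Piga* and *Pigq*, had log2 fold changes of -0.12 and 0.04 in WT and of -0.11 and 0.01 in *Gde2*KO. Of the 5 transamidase subunits 0 were called with age in either genotype, where 13.7% of all genes were called in WT and 11.9% in *Gde2*KO. In WT the ages did not overlap for 3 of the 5, all higher at 19 months, against 19.3% of all genes. In *Gde2*KO this held for 0 of the 5, against 41.2% in either direction. Their log2 fold changes lay between -0.04 and 0.25 in WT and between -0.26 and 0.12 in *Gde2*KO. *Pigyl* was lower at 19 months, at 349 to 409 normalized counts in WT against 462 to 574 at 4 months, and at 381 to 398 in *Gde2*KO against 493 to 1076. Its log2 fold change was -0.84 ± 0.22 in *Gde2*KO (adjusted p = 0.0233) and -0.47 ± 0.22 in WT (adjusted p = 0.154).

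**Figure D4:**
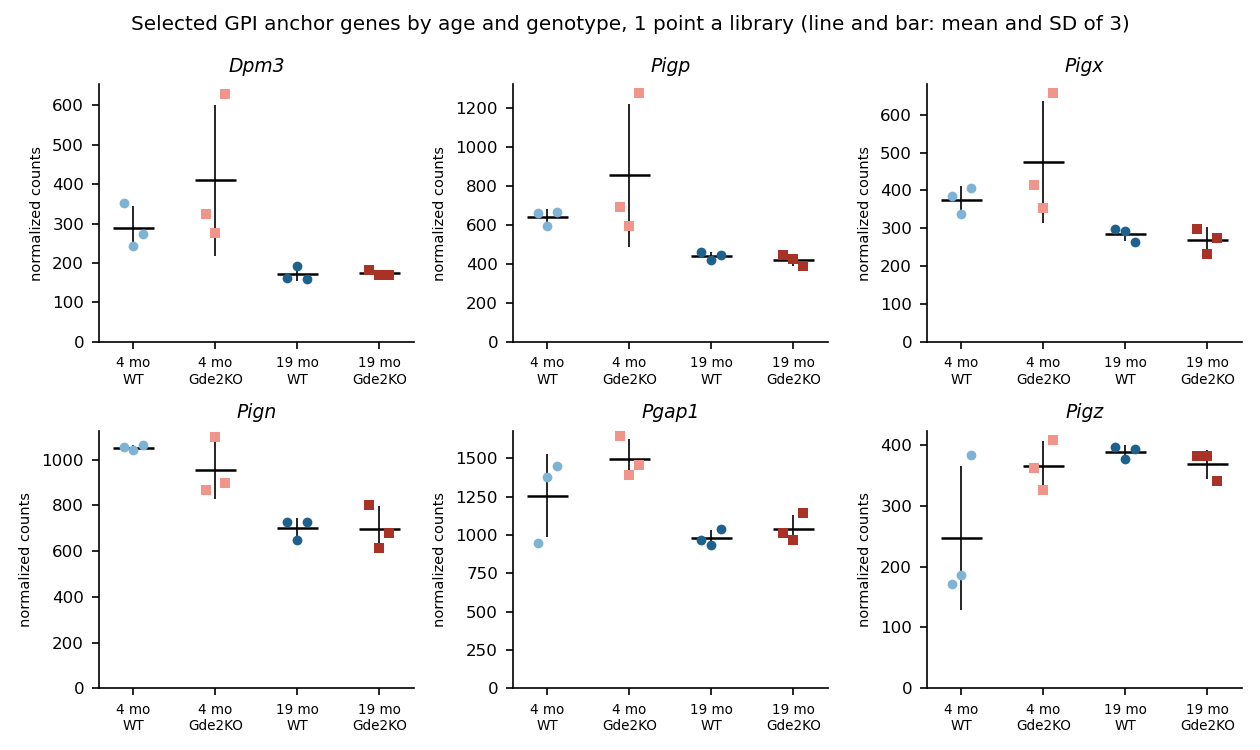
Normalized counts of *Dpm3*, *Pigp*, *Pigx*, *Pign*, *Pgap1* and *Pigz* in each library, with the mean and SD of each group of 3 as a line and bar. For *Dpm3*, *Pigp*, *Pigx* and *Pign* the 19-month points lie below the 4-month points in both genotypes, *Gde2*KO library 3 at 4 months is high for the first 3, and WT libraries 1 and 2 at 4 months are low for *Pigz*.

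The 3 genes called lower with age in *Gde2*KO have short transcripts. The mean transcript length, weighted by normalized counts, was 460 nt for *Dpm3*, 808 nt for *Pigp*, 918 nt for *Dpm2*, 924 nt for *Pigx* and 988 nt for *Pigf*, the 5 members under 1000 nt, against a median of 2501 nt over the 29. In *Gde2*KO, the median log2 change with age was -0.78 for these 5 and -0.09 for the 10 members of 3000 nt or more. Over all genes it was -0.63 under 1000 nt and -0.09 at 3000 nt or more. In WT it was -0.40 and -0.04 for the members, and -0.30 and -0.06 for all genes.

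Length also separated libraries of 1 group. *Gde2*KO library 3 at 4 months differed from the mean of libraries 1 and 2 by a median log2 difference of 0.78 for the 5 short members and -0.07 for the 10 long members, with a Pearson correlation to log2 length of -0.84 over the 29 genes, which share these libraries. Over all genes this correlation was -0.24. The Spearman rank correlation was -0.79 over the 29 genes and -0.40 over all genes. With the length trend of each library removed, a setting added after the data were seen, the *Gde2*KO age values became -0.54 for *Dpm3*, -0.44 for *Pigp* and -0.31 for *Pigx*, and 0 of 29 genes were called. The *Dpm3* value in WT became -0.30 with an adjusted p of 0.241. *Pign*, at 5184 nt, and *Pgap1*, at 10355 nt, are among the longest members. The part of RNA quality or library preparation in these length trends was not tested.

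**Figure D5:**
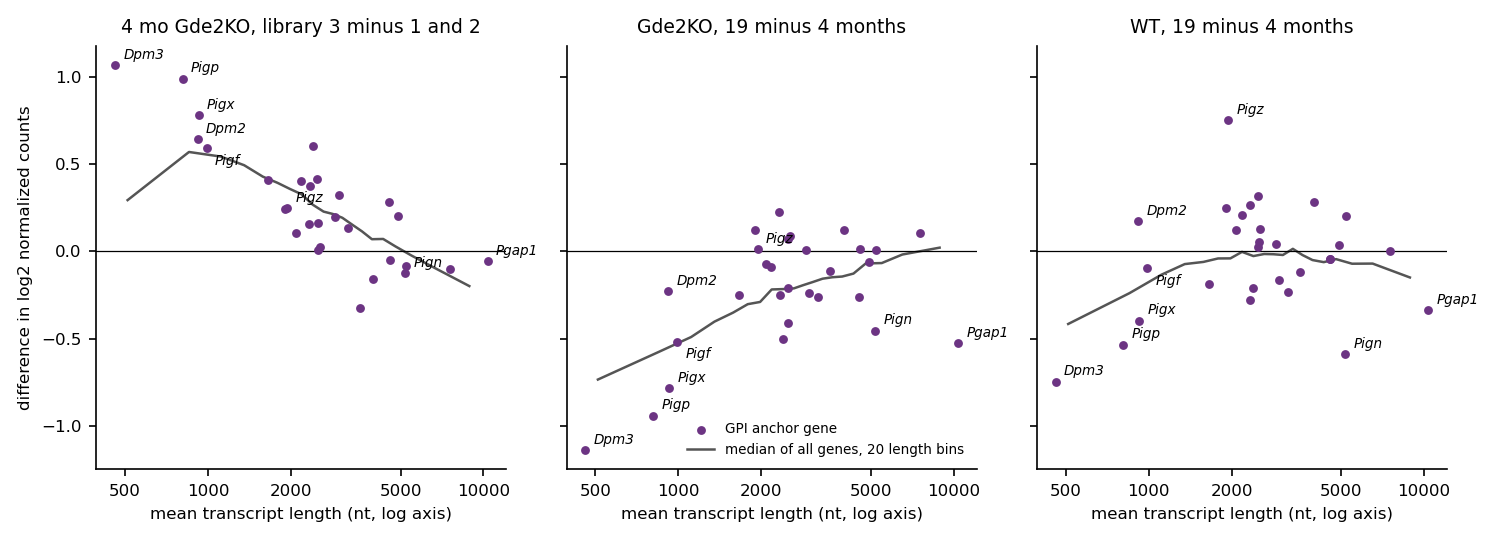
Difference in log2 normalized counts against mean transcript length on a log axis, for *Gde2*KO library 3 against libraries 1 and 2 at 4 months (left) and for 19 against 4 months in *Gde2*KO (middle) and WT (right), with the 29 genes as points and the median of all genes in 20 length bins as a line. The 5 genes under 1000 nt had a median of 0.78 in the left panel and -0.78 in the middle panel.

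Promoter sequence is shown for 3 genes that were lower at 19 months in *Gde2*KO, as the part of each promoter around a 10-base word. The word was more frequent in windows of the members as a whole than in all windows. RefSeq promoter windows, which span the bases just before and after each annotated start, were found for 24 of the 29 genes, with 34 windows in all. The word was GCGC, then any base, then T, then GCGC again, the core bound by NRF1, and it was searched on both strands. It occurred in 23.5% of these windows (8 of 34), against 4.6% of all 32851 windows and 7.86% of the 16709 windows of tested genes. The genes with a match were *Pgap1*, *Pigf*, *Pigl*, *Pigp*, *Pigv* and *Pigx*, 6 of the 24. Of these, *Pigl* and *Pigv* did not pass the adjusted p with age in *Gde2*KO. Windows of a gene can overlap, and the *Pigp* match shown was counted for different starts, ending 18 and 178 bases before them. Capitals below mark the match, read 5′ to 3′ on the strand of the gene in GRCm38.p6. They lie at chr16:94370719-94370748 on the minus strand for *Pigp*, with the match ending 18 bases before the start, at chr16:32099775-32099804 on the minus strand for *Pigx*, ending 57 bases before it, and at chr1:54557718-54557747 on the minus strand for *Pgap1*, ending 43 bases before it, where the word is read on the opposite strand.
Pigp: ggcttagggtGCGCATGCGCagtcgccgcg
Pigx: ctctcaatttGCGCTTGCGCagcctctcgc
Pgap1: gctcgcagttGCGCAGGCGCgctgagcggc

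The windows of *Dpm3*, *Pigh* and *Pign*, which were also lower in *Gde2*KO, held no such match. The ETS-type letters CCGGAAG, searched the same way, occurred in 32.4% of the windows (11 of 34), of *Dpm1*, *Pgap3*, *Pigb*, *Pigc*, *Pigf*, *Pigh*, *Pigo*, *Pigs* and *Pigt*, against 8.86% of all windows and 13.9% of those of tested genes. The letters TATAAA occurred in 8.82% of the windows, against 13.6% of all windows and 9.1% of those of tested genes. CCAAT occurred in 41.2%, against 37.4% of each, and GGGCGG in 61.8%, against 35.7% of all windows and 55.2% of those of tested genes. A match is a description of the letters and was not set against binding data.

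Genes around the pathway were read from 4 further lists. Of 9 genes for other remodeling and export of GPI proteins, 19 for supply of precursors such as GDP-mannose and UDP-GlcNAc, and 26 for N-glycosylation in the endoplasmic reticulum, 0 were called between *Gde2*KO and WT at 4 months, where 0.126% of all genes were, or at 19 months, where 0.0969% were. Of 8 genes for GDE family members and other enzymes that release GPI proteins, 7 could be tested and 1 was called, *Gdpd5* itself at 19 months.

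With age in WT, the only call in these lists was *Gdpd2*, where 13.7% of all genes tested were called. *Gdpd2* is a relative of *Gde2* in the same family, also called GDE3. It measured 244, 222 and 201 normalized counts in WT and 234, 152 and 188 in *Gde2*KO at 4 months, and 93.2, 106 and 91.6 in WT and 49.8, 104 and 122 in *Gde2*KO at 19 months. The ages did not overlap in either genotype. The value of 49.8 came from *Gde2*KO library A, the shallowest library. *Gdpd2* fell by a log2 fold change of -1.19 ± 0.29 in WT (adjusted p = 0.0166 in limma) and of -1.13 ± 0.29 in *Gde2*KO (adjusted p = 0.0210).

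With age in *Gde2*KO, 4 of 26 N-glycosylation genes were called, all lower, where 9.32% of all genes were called lower. These were *Tusc3*, *Ostc* and *Ost4*, subunits of the oligosaccharyltransferase, and *Alg14*, which helps to add the second GlcNAc to dolichol. *Tusc3* measured 9229, 7065 and 12639.5 normalized counts at 4 months and 5009, 4665 and 4927 at 19 months in *Gde2*KO, and 6142, 6698 and 7554 against 4598, 4655 and 5814 in WT. *Gde2*KO library 3 was again the highest at 4 months, and the ages did not overlap. *Tusc3* fell by a log2 fold change of -0.95 ± 0.18 in *Gde2*KO (adjusted p = 0.00677), and the WT value was -0.44 ± 0.18 (adjusted p = 0.0974). The log2 fold changes in *Gde2*KO were -0.84 for *Ostc*, -0.87 for *Alg14* and -0.73 for *Ost4*.

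The median log2 change of the N-glycosylation list was -0.28 in *Gde2*KO and -0.15 in WT. In *Gde2*KO the other calls were 1 of 19 precursor genes, *Gnpnat1*, which acetylates glucosamine phosphate for UDP-GlcNAc, at -0.81 (adjusted p = 0.0186), and 1 of 9 remodeling and export genes, *B3galt4*, a galactosyltransferase for GPI side chains and gangliosides, at -0.74 (adjusted p = 0.0515), with overlap of the ages. *Gnpnat1* measured 709 normalized counts in *Gde2*KO library 3 at 4 months, against 442 and 387 in libraries 1 and 2.

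Because the aged animals were examined for splicing, the share of each transcript in the TPM of its gene was also compared between genotypes. Annotated transcripts per gene ran from 1 for *Pigf*, *Pigm* and *Pigs* to 25 for *Pgap2*, whose leading transcript held a median of 12.1% of its TPM. The leading transcript held over 90% of the TPM in 6 of the 29 genes and under 50% in 10. For *Pigt* it held 87.9 to 95.3% over the 12 libraries.

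Transcript usage was tested for the 24 genes with at least 2 transcripts of sufficient level, with the F test of limma's diffSplice, where a call needed an adjusted p of less than 0.1 as well as a shift over 10 percentage points. At 4 months 0 of 24 were called, against 0.997% of all genes tested (122 of 12235), and 5 of 24 had an unadjusted p under 0.05, against 12.6%. At 19 months 0 of 24 were called, against 0.171% (21 of 12253), and 1 of 24 had an unadjusted p under 0.05, against 5.1%.

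*Pign* passed the adjusted p at 4 months, at 0.0207 in limma, but no transcript of it moved by 10 points. Its transcript ENSMUST00000186485.6 made up 12, 18.5 and 15.1% of the TPM in WT and 24, 17.8 and 26% in *Gde2*KO, a difference of 7.40 points with overlap of the groups. The gene with the smallest p at 19 months was *Pigt*, with an adjusted p of 0.129, and no transcript of it shifted by more than 1.83 points.

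*Pigl*, the deacetylase gene, was split between 2 transcripts. The minor one, ENSMUST00000147918.1, made up 35.4, 32.7 and 33.6% of the TPM in WT and 17.9, 26.3 and 13.9% in *Gde2*KO at 4 months. At 19 months it made up 38.2, 28.8 and 32.5% in WT and 0, 24.8 and 19.1% in *Gde2*KO. The *Gde2*KO shares were below the WT shares at both ages without overlap. The difference at 4 months was -14.5 points with an adjusted p of 0.278, and at 19 months the other transcript gained 18.6 points with an adjusted p of 0.979. *Pigl* was described after its values were seen, and the value of 0 came from *Gde2*KO library A, the shallowest library.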

How the data were processed

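Poly(A)-enriched RNA of cortices from 4-month and 19-month WT and *Gde2*KO mice was sequenced in paired ends, with 3 libraries a group as the labels give them. For expression, the authors quantified transcripts of GRCm38 with Kallisto, and deposited Sleuth-normalized counts, a size-factor-scaled signal of estimated counts, and TPM, per transcript. The error of splitting reads between transcripts does not enter the tests made here. Values of the 118489 transcripts were summed per gene by the deposited gene table, and 1673 transcripts without a gene were left out. No column of values was left without a sample or group, and columns of the 19-month libraries carry no replicate number and are named A to C. No pair of libraries shared identical values, and p-values measure the spread between libraries. The study gives 3 animals a genotype for the RNAseq at 19 months, and the animals behind the 4-month libraries are not given in the sources used here.

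Genes with a value of at least 5 in 47% of libraries were tested with limma 3.58.1 in R 4.3.3, with an intensity trend, on log2(normalized count + 0.5), and p-values were adjusted by Benjamini-Hochberg over all genes tested. Fold changes on this scale understate the change of low genes. Genotype was fitted on the 6 libraries of an age, and age and interaction on all 12. Calls needed an adjusted p under 0.1 and a natural-log fold change over 0.5, and the interaction the adjusted p alone. The fit was checked on simulated data. Depth was estimated by taking the commonest nonzero transcript value of a library as 1 read. Alternatives were other scalings, filters, pseudocounts and weights, TPM with a pseudocount of 0.1, a replicate block, left-out libraries, and a correction for transcript length added after the data were seen. Transcript lengths and positions are from the GENCODE annotation of GRCm38. All members may be named, and values in every library are given for those called, the 3 with the smallest p in each genotype or age comparison, the highest and lowest in TPM, and *Gdpd5*, while genes of other lists are named where called. Members and lists were chosen with earlier results of these data known.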

Additional observations from a re-analysis of the deposited data

How the results depend on the processing

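At 19 months 0 of the 29 genes were called between genotypes under all 19 alternatives. At 4 months 0 were called except for 1 with array weights, where calls over all genes rose from 24 to 2934, and 0 to 1 with single libraries left out, the 1 being *Pigz* without WT library 3 at 4 months (log2 fold change 1.03, adjusted p = 0.0152 in limma, 1510 calls over all genes). The genotype difference of *Pigz* at 4 months turned to -0.077 without WT libraries 1 and 2, which leaves 1 WT library. With a replicate block at 4 months, 0 of the 29 and 21 of all genes were called. Same-numbered libraries had correlations of deviations of 0.06, 0.0071 and -0.05, and differently numbered ones of -0.14 to 0.11. These values cannot show whether the numbers pair the libraries. The interaction was called for 12 genes with array weights (8744 over all genes) and for 0 to 2 with single libraries left out, the 2 being *Mppe1* and *Pigz* without WT library 3 at 4 months (2029 over all genes). With age in WT, 1 gene was called with TMM, median-of-ratios scaling, gene-level TPM, array weights or the length trend removed. Over all genes these settings called 2527 to 4240. By adjusted p alone 4 were called (5279 over all genes), and without both shallow libraries 0 (2440 over all genes). With single libraries left out 0 to 2 were called (0 without WT library 1 at 4 months or any WT library at 19 months, 1 without WT library 2 at 4 months). Over all genes these fits called 1525 to 3096. With age in *Gde2*KO, 9 were called by adjusted p alone (6053 over all genes) and 0 with the length trend removed (1479 over all genes). With single libraries left out 1 to 3 were called (1096 to 2851 over all genes). The 1 was *Dpm3* without *Gde2*KO library 3 at 4 months (1096 over all genes). Transcript usage at 4 months gave 1 by adjusted p alone (*Pign*, 324 over all genes) and 0 to 2 with single libraries left out. These were *Pigb* and *Pigx* without *Gde2*KO library 1 (119 over all genes) and *Pigl* and *Pigu* without *Gde2*KO library 2 (659 over all genes). At 19 months it gave 0 under all 11 alternatives. Of 500 alternative values of 26 named fold changes, 499 kept their direction. Part of this count was fixed in advance. The filters, the fit without an intensity trend, the fit of all 12 libraries and the adjusted p alone leave a fold change as it was. Except where construction shows it, the cause was not tested. With 3 libraries a group, the outermost ends of the 95% intervals of the 29 genes at 4 months were -0.61 and 1.36 on the log2 scale, in different genes.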
